A study of Drosophila melanogaster with 9 samples.

Results

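The cytosolic ribosomal protein genes of the adult fly gut were followed across 3 diets. Members were chosen by name alone: every gene whose symbol starts with RpL or RpS, followed by a digit, by P0, P1 or P2, or by A. This took in 85 of the 10245 genes listed and left out the mitochondrial ribosomal proteins. By name, 34 encode proteins of the small subunit, 45 encode proteins of the large subunit, 3 encode the stalk proteins RpLP0, RpLP1 and RpLP2, and 3 carry a name ending in -like. The RNA came from whole guts of adult Drosophila melanogaster females of the wild-type strain Oregon R, fed agar alone, 10% glucose or standard medium, each diet in 3 biological repeats, which makes 9 libraries. Agar gives water but no nutrients, and glucose gives sugar without protein. Neither a transgene nor a mutation is named for any group, and neither age nor feeding time is stated in the labels.

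Ribosomes are built from ribosomal RNA and a fixed set of ribosomal proteins, nearly all present in a single copy. The large subunit joins amino acids, the small subunit reads the messenger RNA, and the stalk recruits the GTPases that drive each step. In flies, losing a single copy of many of these genes gives the Minute phenotype of slow growth and short bristles. Their messenger RNAs are among the most abundant in any growing cell. Insulin and TOR signalling are known to set ribosome production according to nutrient supply.

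The values were RPKM, reads scaled by transcript length and by library total, made by the authors, so levels below are compared per length. Library totals recovered from the values lay between 34899709 and 48389188 reads, at which 1 read per kilobase is worth 0.0207 to 0.0287 RPKM. Counting error was therefore small for the highly expressed members: RpL35A, a large subunit protein, had 1185 to 6894 whole reads per library. RpS27A, which is made as a fusion of ubiquitin with a small subunit protein, had 23313 to 36319. Enterocyte markers were present in every library, with a summed RPKM of 12665 to 31002 for the 8 of 10 listed markers found in the files. In 190 genes all values equalled those of another gene, and none of the 85 was among them.

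Most of these genes were highly expressed on every diet. The mean over the 9 libraries was above 100 RPKM for 79 of the 85 genes, above 500 RPKM for 31 and above 1000 RPKM for 3, and 63 of the 200 genes with the highest means were ribosomal protein genes. RpL41, the shortest of the ribosomal proteins, had the highest mean, 1588 RPKM, followed by RpS27A at 1280 RPKM and RpL5, which carries the 5S ribosomal RNA together with RpL11, at 1005 RPKM. The lowest were RpS5b at 2.14 RPKM, RpLP0-like at 15.5 RPKM and RpL7-like at 27.97 RPKM. Median levels of the subunits were close, at 420 RPKM for small subunit genes and 436 RPKM for large subunit genes. The stalk genes had a median of 371 RPKM and the -like genes one of 27.97 RPKM.

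The 85 genes stayed level on glucose and varied between repeats on the other diets. Their median log2 RPKM was 8.96, 8.92 and 8.84 in glucose repeats 1, 2 and 3. On agar it was 8.98, 8.72 and 8.07, and on standard medium it was 8.96, 8.29 and 8.25. Thus agar 3, standard 2 and standard 3 were low, and agar 1 and standard 1 lay beside the glucose libraries. As means the diets had 8.59 ± 0.47 on agar, 8.91 ± 0.06 on glucose and 8.50 ± 0.40 on standard medium (SD, n = 3 each), with overlapping ranges.

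Their share of all RPKM in a library gave another order. Glucose libraries gave 12.6%, 12.7% and 13.2%, agar libraries 11.7%, 11.9% and 10.4%, and standard medium libraries 9.65%, 6.97% and 7.22%. Each agar and glucose library lay above every standard library by this measure, and each glucose library lay above every agar library. Libraries standard 2 and standard 3 also differed from the rest in other RNA. Their 110 histone genes stood 3.28 and 2.62 log2 units above these genes' own 9-library means, against -1.71 to -0.14 in the other libraries. The 6 ribosomal RNA genes and pseudogenes stood 3.28 and 2.67 above, against -1.52 to -0.10. What part these had in the ribosomal protein values was not tested. In bulk RNA of a whole gut, fewer cells of a type and less RNA per cell cannot be told apart.

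**Figure D1:**
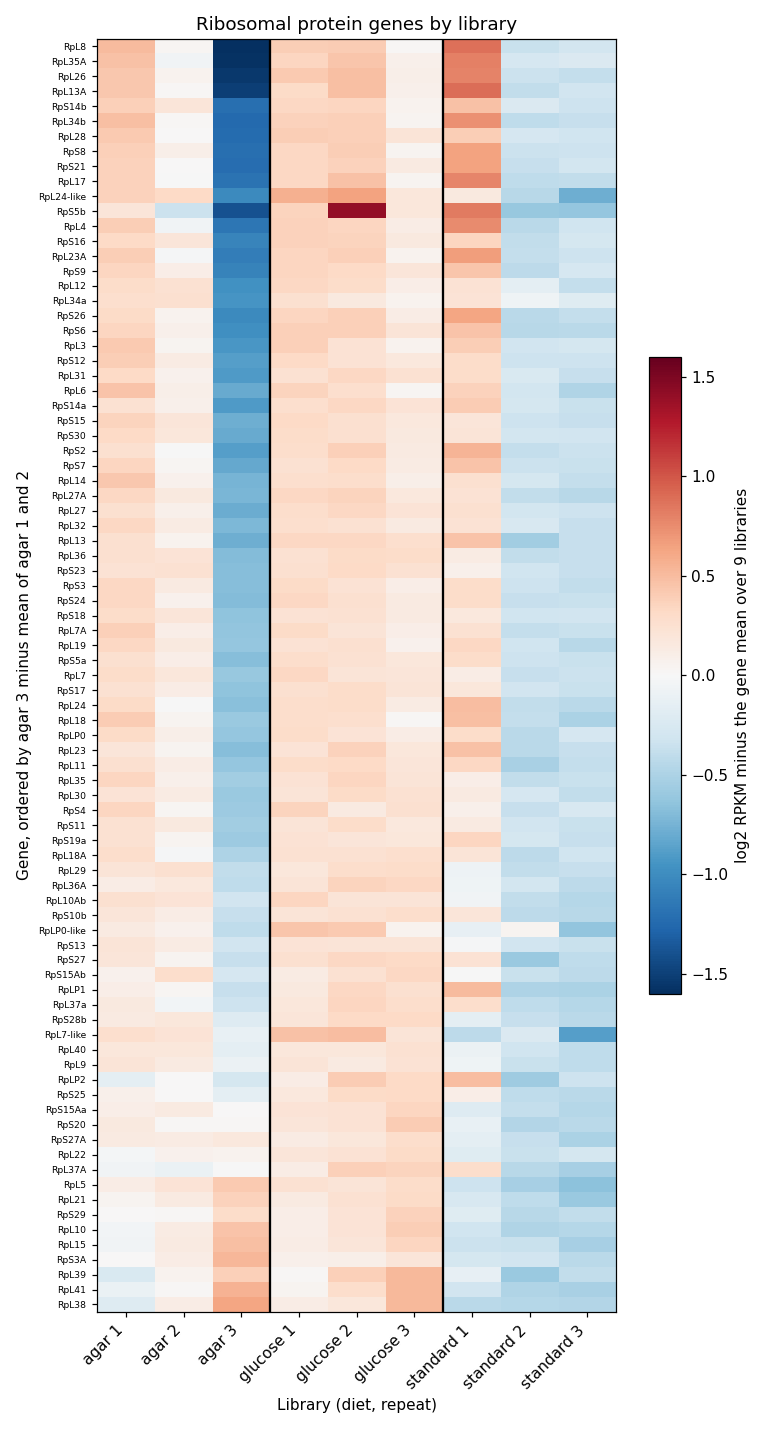
Each row is 1 of the 85 genes, ordered by the difference between agar 3 and the mean of agar 1 and 2, and each column is 1 library. Colour gives log2 RPKM minus the gene's own mean over the 9 libraries, blue for lower and red for higher. Agar 3 runs from blue for most genes to red for the genes at the foot, RpL38, RpL41 and RpL39, while standard 2 and 3 are pale blue nearly throughout.

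Repeat numbers mattered for these genes, as the plot of medians by repeat shows. Differences within a repeat were taken in log2 RPKM, whereas the fits below used log2(RPKM + 1), so their medians are not on 1 scale. In repeat 1 the median difference over the 85 genes was 0.01 for glucose minus agar. It was 0.03 for glucose minus standard and 0.05 for agar minus standard. The medians of all tested genes in repeat 1 were 0.00, 0.28 and 0.27, and single members ran from -0.58 to 0.89 for glucose minus standard. In repeat 2 these medians were 0.19, 0.66 and 0.46, and all 85 genes had their lowest level on standard medium. In repeat 3 they were 0.81, 0.57 and -0.29, and only 29 genes were higher on agar than on standard medium. The all-gene medians for agar minus standard were 0.38 in repeat 2 and 0.40 in repeat 3. After median-ratio scaling the agar minus standard medians of repeats 1, 2 and 3 were -0.25, 0.09 and -0.70, with 5, 70 and 14 genes above 0. For glucose minus standard the scaled medians were -0.25, 0.36 and 0.19, so on either scale the repeats did not give 1 common size.

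**Figure D2:**
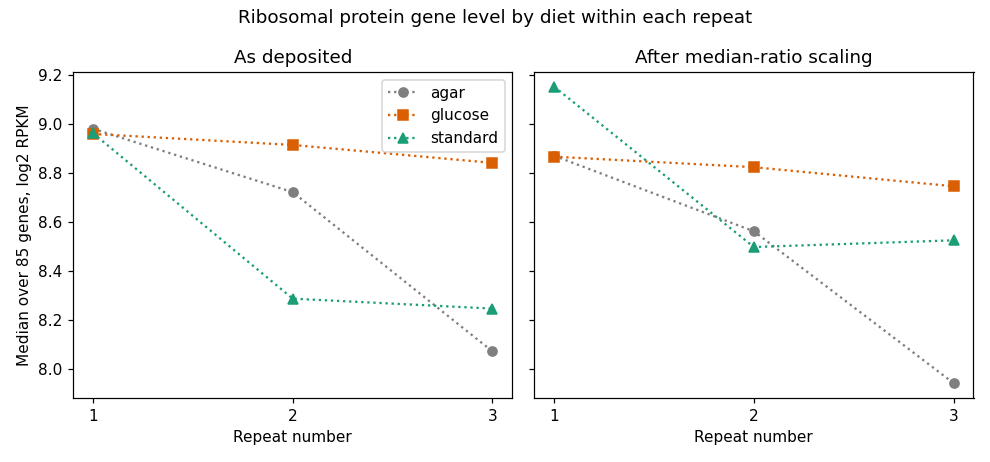
Median log2 RPKM of the 85 genes by repeat number for agar (circles), glucose (squares) and standard medium (triangles), as deposited on the left and after median-ratio scaling on the right. The deposited medians of repeat 1 lie within 8.96 to 8.98 for the 3 diets, and the glucose line is the flattest, from 8.96 to 8.84.

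Sugar against no food was asked by glucose versus agar, in which no ribosomal protein gene passed the test. The test was limma's moderated test with an adjusted p under 0.05, and none of the 85 had an unadjusted p under 0.05. Over all 8036 genes tested, 0.286% were called in either direction. The estimates still leaned upward: 83 of the 85 were above 0, against 3565 of the 8036 tested genes. Their median was 0.33, beside a median of -0.02 over all genes. In 14 of the 85, or 16.5%, all glucose libraries lay above all agar libraries, against 5.01% of all genes. Without agar 3 the median was 0.07 and 70 genes were above 0.

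The largest difference was that of RpS5b, the paralog of RpS5a used mainly in the germline. It stood at 2.096, 1.45 and 0.70 RPKM on agar, 2.35, 4.89 and 2.09 RPKM on glucose, and 3.28, 1.21 and 1.19 RPKM on standard medium. Its read numbers were not recovered, and at such low levels counting error weighs more than for the other members. The groups overlapped, and the difference of 0.75 ± 0.34 (SE) between glucose and agar was not called (limma adjusted p = 0.515). Its highest library, glucose 2, was also the one in which the oocyte gene osk was detected at 2.14 RPKM, against at most 0.0966 RPKM elsewhere, and whether the 2 are linked was not tested. Without glucose 2 the RpS5b difference was 0.46.

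RpL22, a large subunit protein, had 146, 156 and 155 RPKM on agar, 170, 174 and 185 RPKM on glucose, and 130, 116 and 123 RPKM on standard medium. Its groups did not overlap, in the order standard, agar, glucose, but the difference of 0.21 ± 0.11 between glucose and agar was not called (limma adjusted p = 0.607). RpL36A, also of the large subunit, had 696, 719 and 483 RPKM on agar and 737, 816 and 806 RPKM on glucose, a difference of 0.33 ± 0.18 that was not called (adjusted p = 0.633). For RpLP0-like the difference was 0.35 ± 0.20 (adjusted p = 0.648), and for RpL26, a large subunit protein at the mouth of the exit tunnel, it was 0.68 ± 0.50 (adjusted p = 0.757). Below 0 stood RpS3A, a small subunit protein, at -0.09 ± 0.16, and RpL5 at -0.00 ± 0.14, and both turned positive without agar 3, at 0.06 and 0.08. With repeat number as a block none of the 85 was called, against 2.38% of all genes. After median-ratio scaling, which sets the libraries' typical gene equal, none was called either, against 0.149% of all genes, and the median was 0.37.

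Standard medium was lower than glucose for 14 ribosomal protein genes. All 85 estimates for glucose minus standard were above 0, as were 6922 of the 8036 tested genes. The median over the 85 genes was 0.42, beside 0.25 over all genes. The 14 called higher on glucose were 16.5% of the 85, below the 21.3% of all genes called higher, and none was called lower. By group they were 5 of 34 small subunit genes, 8 of 45 large subunit genes, none of 3 stalk genes and 1 of 3 -like genes. All glucose libraries lay above all standard libraries for 36 of the 85, or 42.4%, against 50.3% of all genes. With repeat number as a block, 25 of the 85 were called, among them all 14, against 42.1% of all genes.

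Without the repeat block, none of these calls held after scaling. With the block and median-ratio scaling, 1 of the 14 held, against 1.89% of all genes called higher. On standard medium the deposited values of most genes were lower, and median-ratio scaling moved the median of all genes from 0.25 to 0.01. After scaling without the block, no ribosomal protein gene was called, against 0.311% of all genes called higher. The median over the 85 genes was then 0.10, with 70 above 0, against 4143 of the 8036 tested genes. Quantile normalization, which gives every library the same distribution, also called none, but its median was 0.55 with all 85 genes above 0, beside 0.02 over all genes. Without standard 2 and standard 3 the median was 0.00 with 43 genes above 0. That left standard medium with 1 library, and since no gene of the whole table was then called, the fit cannot show whether the calls rest on those libraries.

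RpL5 had the smallest p. It stood at 1158, 1128 and 1193 RPKM on glucose, 1062, 1138 and 1301 RPKM on agar, and 772, 677 and 619 RPKM on standard medium. Each standard library was below every other library, and the difference between glucose and standard medium was 0.75 ± 0.14 (limma adjusted p = 0.0182). RpL11, its partner on the 5S RNA, did not separate the diets: it had 448, 457 and 416 RPKM on glucose, 435, 398 and 238 RPKM on agar, and 460, 255 and 280 RPKM on standard medium.

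The -like genes stand apart from the structural proteins by function and level, since their yeast counterparts are ribosome assembly factors. RpL7-like had 37.2, 37.7 and 31.1 RPKM on glucose, 32.3, 31.3 and 24.6 RPKM on agar, and 20.03, 22.8 and 14.6 RPKM on standard medium. It gave the largest difference of the 85 between glucose and standard medium, 0.87 ± 0.18 (limma adjusted p = 0.0198). RpL24-like had 77.5, 81.9 and 59.4 RPKM on glucose, 67.3, 64.9 and 25.8 RPKM on agar, and 58.2, 38.2 and 30.5 RPKM on standard medium. Its difference from standard medium was the next in size, 0.81 ± 0.37, with no overlap between the groups. It was not called in the main fit (limma adjusted p = 0.124). With the repeat block it was called (limma adjusted p = 0.0245), and its lowest adjusted p in any alternative run was 0.0126. RpLP0-like had 15.7 to 20.6 RPKM on glucose and 9.77 to 15.5 RPKM on standard medium. It too was not called in the main fit but was called with the block (limma adjusted p = 0.0826, and 0.0109 with it).

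Among the small subunit genes, RpS15Aa had 770, 779 and 845 RPKM on glucose and 576, 508 and 486 RPKM on standard medium, a difference of 0.61 ± 0.13 (limma adjusted p = 0.0214). RpS20 had 403, 414 and 469 RPKM on glucose against 325, 254 and 261 RPKM on standard medium, and rose by 0.62 ± 0.14 (adjusted p = 0.0255). RpS27A, the ubiquitin fusion, had 1375, 1428 and 1529 RPKM on glucose against 1135, 974 and 890 RPKM on standard medium, and rose by 0.54 ± 0.14 (adjusted p = 0.0313). The other small subunit genes called were RpS28b at 0.59 and RpS29 at 0.57. RpL40, the other ubiquitin fusion, lay just outside the threshold (adjusted p = 0.0518, and 0.0298 with the repeat block), with 1027, 1027 and 1074 RPKM on glucose and 848, 724 and 682 RPKM on standard medium.

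The large subunit genes called beside RpL5 included very small proteins. RpL41 had 1583, 1862 and 2201 RPKM on glucose, 1428, 1558 and 2254 RPKM on agar, and 1236, 1099 and 1072 RPKM on standard medium, a difference of 0.72 ± 0.21 for glucose minus standard (limma adjusted p = 0.0407). RpL38 had 388, 408 and 513 RPKM on glucose, 311, 390 and 553 RPKM on agar, and 265, 260 and 260 RPKM on standard medium, a difference of 0.72 ± 0.21 (adjusted p = 0.0429). RpL39, which lines the exit tunnel, differed by 0.68 ± 0.21 (adjusted p = 0.0497). RpL22 differed by 0.52, RpL21 by 0.65, RpL15 by 0.62 and RpL10, which is among the last proteins to join the large subunit, by 0.66. Standard medium held the lowest libraries of every gene in this group but RpL39, whose standard 1 at 505 RPKM was above agar 1 at 470 RPKM.

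Genes often used as references or studied for their own roles did not pass the test in any comparison. RpS6, the substrate of S6 kinase, had 445, 447 and 396 RPKM on glucose, 433, 363 and 174 RPKM on agar, and 469, 252 and 253 RPKM on standard medium. RpL32, known as rp49 and used to normalise fly RNA measurements, had 581, 572 and 532 RPKM on glucose, 606, 528 and 293 RPKM on agar, and 564, 402 and 372 RPKM on standard medium. Both followed the majority: level on glucose, and low in agar 3, standard 2 and standard 3. RpS3, a small subunit protein at the entry of the messenger RNA channel, spanned 324 to 656 RPKM with the same 3 libraries lowest.

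The stalk genes were low in standard 2 and 3 as well. RpLP0 had 349, 332 and 310 RPKM on glucose, 353, 305 and 186 RPKM on agar, and 349, 212 and 237 RPKM on standard medium. RpLP1 had 562, 636 and 605 RPKM on glucose, 545, 515 and 390 RPKM on agar, and 716, 359 and 356 RPKM on standard medium. RpLP2 had 392, 477 and 451 RPKM on glucose, 324, 363 and 298 RPKM on agar, and 507, 243 and 287 RPKM on standard medium. For both acidic proteins standard 1 was the highest library of all and standard 2 or 3 the lowest, so the repeats of 1 diet spanned the whole range.

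**Figure D3:**
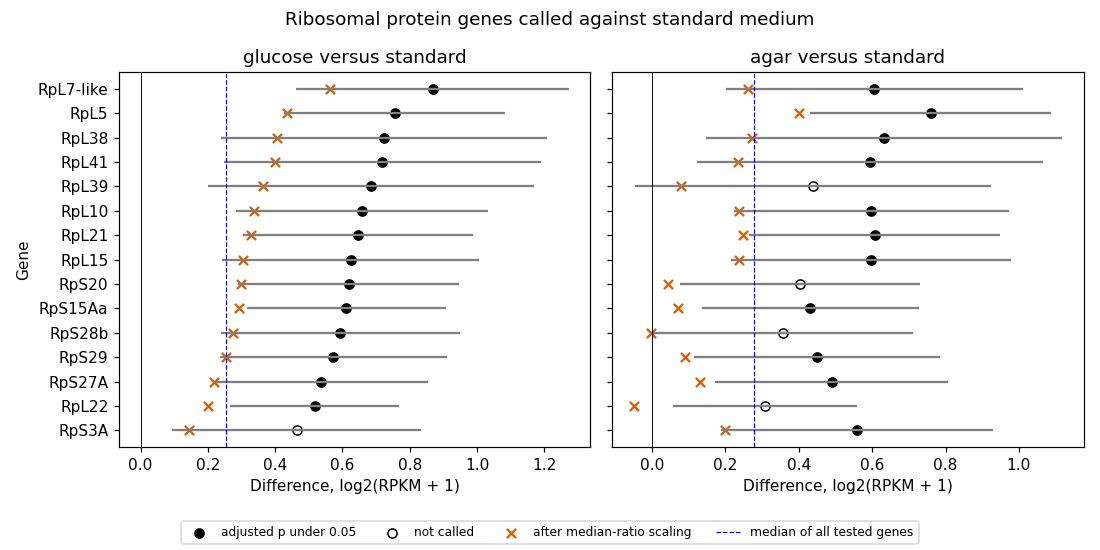
Difference in log2(RPKM + 1) from standard medium for glucose (left) and agar (right), for the 15 genes called in either. Points are estimates with 95% intervals, filled where the adjusted p was under 0.05, crosses are the estimates after median-ratio scaling, and the dashed line is the median of all tested genes, 0.25 and 0.28. RpL7-like and RpL5 lie farthest right on glucose and RpL5 on agar.

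Standard medium was lower than agar for 11 ribosomal protein genes, on a weaker common trend. Only 57 of the 85 estimates for agar minus standard were above 0, against 6815 of the 8036 tested genes. The median over the 85 genes was 0.09, beside 0.28 over all genes. The 11 called higher on agar were 12.9% of the 85, against 37.7% of all genes, and none was called lower. They were 4 small subunit genes, 6 large subunit genes and RpL7-like. Groups did not overlap for 13 genes higher on agar, or 15.3%, against 47.4% of all genes. After median-ratio scaling none was called, against 1.8% of all genes called higher. The median was then -0.27 and 14 genes were above 0, against 3995 of the 8036 tested genes. Quantile normalization called none either, but turned the other way, with a median of 0.26 and 71 genes above 0. With repeat number as a block 14 were called, against 51% of all genes.

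Agar 3 weighed on this comparison too. Without it the median was 0.36, beside 0.28 over all genes, and all 85 estimates were above 0, while 13 genes, or 15.3%, were called, against 33.9% of all genes. Leaving out any other agar library, or standard 2 or 3, put the median between -0.09 and -0.01. Without both standard 2 and 3 it was -0.34, from 1 standard library and with no gene called in the whole table. RpL5 again had the smallest p, with a difference of 0.76 ± 0.14 between agar and standard medium (limma adjusted p = 0.00778). RpL38 followed in size at 0.63 ± 0.21 (adjusted p = 0.0434), then RpL21 at 0.61, RpL7-like at 0.61, RpL10 at 0.60, RpL15 at 0.60 and RpL41 at 0.59. RpS3A had 853, 920 and 1232 RPKM on agar, 900, 909 and 971 RPKM on glucose, and 699, 685 and 631 RPKM on standard medium, and rose by 0.56 ± 0.16 (adjusted p = 0.0277). The remaining calls were RpS27A at 0.49, RpS29 at 0.45 and RpS15Aa at 0.43.

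The estimates farthest below 0 were those of RpL35A, -0.48 ± 0.49, and RpL8, which lies near the catalytic centre, -0.43 ± 0.52. Neither was called (limma adjusted p = 0.443 and 0.528), and without agar 3 they were 0.10 and 0.19. Both comparisons with standard medium use the same 3 standard libraries, so their calls are not independent. Side by side, 10 genes were called in both, 4 on glucose alone and RpS3A on agar alone. The same split was not counted over all genes, so nothing is read from it. With repeat number as a block the split was another: the 14 genes called on agar were all among the 25 called on glucose. RpS3A was then also called on glucose (limma adjusted p = 0.0457), and RpL22, RpS20 and RpL9 on agar (adjusted p = 0.0410, 0.0383 and 0.0473). RpS3A had 0.46 ± 0.16 on glucose (adjusted p = 0.0662), and RpL39 had 0.44 ± 0.21 on agar (adjusted p = 0.124).

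In agar 3 the ribosomal protein genes split. Against the mean of agar 1 and 2 the median departure was -0.85 log2 units, from -1.87 for RpL8 to 0.67 for RpL38, while the median over all tested genes was 0.02. Of the 85, 73 were lower in agar 3 than in both other agar libraries and 11 were higher, shares not counted over all genes. A departure below -1 was found for 29 of the 85, against 278 of the 8036 tested genes. RpL8 had 282, 202 and 65.1 RPKM in agar 1, 2 and 3, against 201 to 262 RPKM on glucose. RpL26 had 502, 386 and 128 RPKM and RpL13A, a large subunit protein, had 220, 166 and 57.6 RPKM on agar. At the other end RpL38 stood at 553 RPKM, RpL41 at 2254 RPKM and RpL15 at 1029 RPKM, each the highest of its 9 libraries.

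Markers of gut cell types were also read in agar 3. Its summed enterocyte markers, 12665 RPKM, were below the 19334 to 31002 RPKM of the other libraries, and its summed muscle markers, 527 RPKM, lay within their 460 to 691 RPKM. The enterocyte list included the serine protease genes betaTry, alphaTry and Jon65Aiii, and the part of each gene in the sum is not given here. The sum is therefore not a measure of enterocyte number. Copper cell markers, at 83.9 RPKM, were above the 55.6 to 72.7 RPKM elsewhere, and neuron markers, at 8.34 RPKM, were at their highest beside 8.32 RPKM in glucose 3. Whether these bear on the ribosomal protein genes was not tested. Across the 9 libraries Pearson's r with the mean of the 85 genes was 0.55 for the enterocyte sum and 0.56 for muscle. It was 0.57 for fat body, 0.64 for enteroendocrine, 0.67 for haemocyte, 0.45 for Malpighian tubule, 0.39 for progenitor and 0.38 for ovary markers. For neuron markers it was -0.48 and for copper cell markers -0.25. Haemocyte sums were only 2.1 to 3.3 RPKM and neuron sums 4.0 to 8.3 RPKM. For each of them, 1 of the 4 genes found was expressed highly enough to be tested, and none of the ovary markers was.

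Standard 2 and 3 differed from standard 1 in 1 direction. The median departure was -0.61, beside -0.07 over all tested genes. All 85 genes were below 0, while 3179 of the 8036 tested genes were above 0. Of the 85, 83 were lower in both libraries than in standard 1, a share not counted over all genes. RpL13A had the lowest value of the genes above 50 RPKM, -1.24 log2 units, going from 304 RPKM to 125 and 133 RPKM. RpL38 hardly moved, at -0.03. Genes low in agar 3 tended to be low in standard 2 and 3 as well, with r = 0.75 between the departures over 85 genes that share these libraries. The agar 3 departure had r = 0.38 with mean level over 85 genes and r = -0.11 with transcript length over 84.

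**Figure D4:**
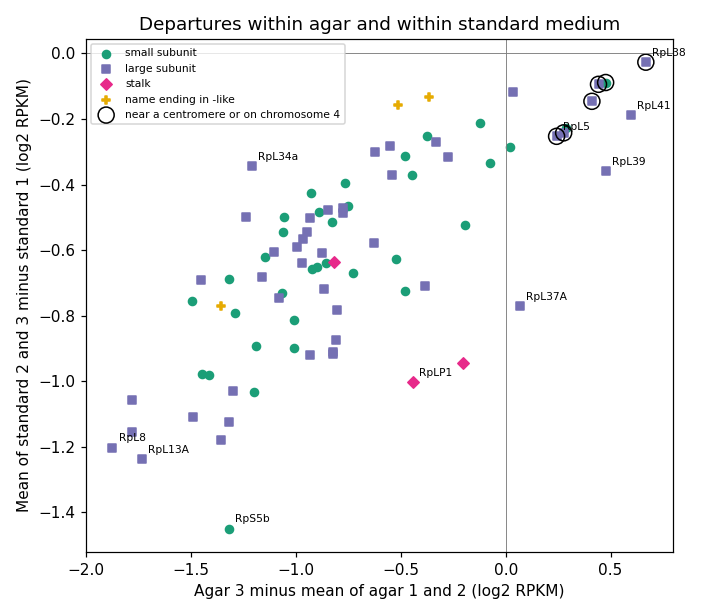
Each point is 1 of the 85 genes. The horizontal axis is agar 3 minus the mean of agar 1 and 2, the vertical axis the mean of standard 2 and 3 minus standard 1, both in log2 RPKM, with marker shapes for subunit and rings for genes near a centromere or on chromosome 4. The ringed genes sit at the upper right, between 0.24 and 0.67 across and between -0.25 and -0.03 upward.

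Of the 12 genes above 0 in agar 3, 6 lie at the inner end of a chromosome arm or on chromosome 4. RpL5 and RpL21 lie at the base of arm 2L, RpL38 at the base of 2R, RpL10 and RpL15 at the base of 3L, and RpS3A on the small chromosome 4. They were all the members among the 2% of each arm's genes nearest its centromere, or on chromosome 4, by the current annotation, a limit chosen after the values were seen. RpL5, RpL15 and RpL38 are known heterochromatic genes in flies. All 6 were above 0 in agar 3, with a median of 0.43 against -0.88 for the other 79, of which 6 were above 0. The 227 tested genes at such places that are not members had a median of 0.52. No test was run, since the grouping came from these values.

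Genes a little farther out were low. RpL35A and RpL13A, with 4.27% and 5.26% of the genes of arm 3R nearer the centromere, were among the 4 lowest members in agar 3, and RpLP0, with 4.09% of arm 3L nearer, was at -0.82. RpL41 and RpL39 were high in agar 3, at 0.60 and 0.48, and lie far out on 2R. Against standard medium 5 of the 6 were called on glucose and 6 on agar, against 21.3% and 37.7% of all genes, but the group was drawn from values in agar 3 that enter the agar difference, so nothing is read from these counts. In each of the 3 repeats standard medium gave all 6 their lowest level, as it did for all 85 members in repeat 2. Repeat 3 includes agar 3, from which the group was drawn, and the share over all genes was not counted. Nothing is read from this either. Of the 227 non-members at such places, 218 had a glucose mean above standard 1. The mean of agar 1 and 2 was above standard 1 for 220 of them. Over all 8036 tested genes these counts were 6330 and 6461.

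**Figure D5:**
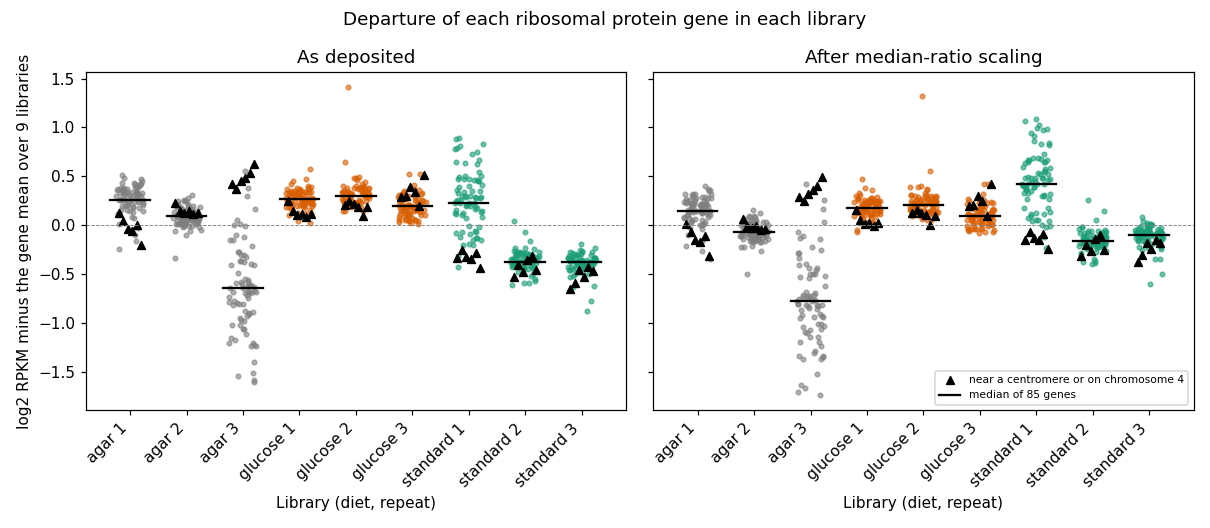
log2 RPKM minus each gene's mean over the 9 libraries, for the 85 genes in each library, as deposited (left) and after median-ratio scaling (right). Circles are genes, black triangles the 6 genes near a centromere or on chromosome 4, and bars the medians over 85 genes. In agar 3 the deposited median is -0.65 while the triangles lie above 0, and in standard 1 the triangles lie below the median of 0.23.

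Most of the genes moved together. The median Pearson correlation between pairs of the 85 genes over 9 libraries was 0.86, beside 0.48 for 73 mitochondrial ribosomal protein genes and 0.44 for 25 initiation factor genes. With the mean of the other members, 56 of 85 genes had r of at least 0.9 and 9 had r under 0.5. RpL27A was the most typical, at 0.99, and RpS3A, RpL38 and RpL15 the least, at 0.01, 0.03 and 0.14. Without agar 3 those 3 stood at 0.76, 0.61 and 0.72, and no pair of members had a negative correlation, against 6.50% of pairs with it. All these genes share the 9 libraries, so that any library effect enters each correlation.

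Of the genes outside the family, PyK, the glycolytic enzyme pyruvate kinase, was closest to the mean of the 85 genes, with r = 0.987 over 9 libraries. It had 64.8, 60.3 and 34.3 RPKM on agar, 66.1, 68.0 and 66.1 RPKM on glucose, and 64.3, 45.4 and 43.4 RPKM on standard medium. The replacement histone gene His4r followed at 0.983, then usp at 0.980, morgue and regucalcin at 0.974 each, the glycolytic Pglym78 at 0.972, Nacalpha, a ribosome-bound chaperone subunit, at 0.970, and its partner bic at 0.968. Bearing another name, the small subunit gene sta, which encodes the fly RpSA, was not a member, and ran from 157 RPKM in agar 3 to 460 RPKM in standard 1.

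Paralogs differed widely in level. Fly duplicates of ribosomal protein genes often have a main copy and a copy used in few tissues, and 7 pairs were in the files. RpS5a had 247 times the level of RpS5b (median of the per-library ratios, range 104 to 386), and RpS15Aa had 11.1 times that of RpS15Ab (9.81 to 13.6). RpS14a and RpS14b, which lie side by side on X, had a ratio of 1.61 (1.51 to 2.06), and RpL34a to RpL34b one of 0.779 (0.541 to 0.976). Against their -like genes, the ratio was 18.9 for RpL7 (13.8 to 28.2), 3.17 for RpL24 (2.58 to 4.205) and 19.2 for RpLP0 (13.7 to 25.4). Reads of such near copies may have been shared out in counting, so the ratios are uncertain.

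Diet did not shift any of these ratios past the test. Of 21 tests, on 7 pairs and 3 comparisons, none reached an adjusted p under 0.05 over the 21 in limma, and the lowest adjusted p was 0.544. The only unadjusted p under 0.05 was for RpL24 minus RpL24-like between glucose and standard medium, -0.47 ± 0.18, where the limma adjusted p was 0.544 and RpL24 had 209, 211 and 188 RPKM on glucose and 244, 131 and 128 RPKM on standard medium.

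Other parts of the translation machinery were read in the same fits, in which 21.3% of all genes were called higher on glucose and 37.7% on agar than on standard medium, and 42.1% and 51% with the repeat block. Of 73 mitochondrial ribosomal protein genes, 4 were called higher on glucose and 10 on agar, and 10 and 16 with the block. Of 25 initiation factor genes, 2 and 4 were called higher, and 8 and 7 with the block, among them eIF3-S9, a subunit of the factor that readies the small subunit, which had 81.7 ± 1.9 RPKM on agar, 79.8 ± 4.1 RPKM on glucose and 58.9 ± 1.8 RPKM on standard medium (SD, n = 3). None of 8 elongation and release factor genes was called, and 3 and 0 with the block. Of 27 ribosome assembly and RNA polymerase I genes, 5 were called higher on glucose and 4 on agar than on standard medium, and with the repeat block 23 and 6. The block also called 1 of the 27 lower on agar than on standard medium, against 384 of the 8036 tested genes. None of these lists had a gene called between glucose and agar, except that the block called 4 assembly genes higher on glucose. Of all genes 0.286% were called in that comparison in either direction, and the block called 0.635% higher on glucose.

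Of 17 growth control genes, 5 were called higher on glucose and 5 on agar than on standard medium, 12 and 11 with the block, which also called 1 higher on glucose than on agar. Rheb, the GTPase that activates TOR, had 54.4 ± 3.4 RPKM on agar, 48.3 ± 5.9 RPKM on glucose and 30.4 ± 2.0 RPKM on standard medium. Pdk1, the kinase that activates Akt and S6 kinase, was called lower on agar than on standard medium, by -0.58, with 19.8 ± 2.9 and 30.2 ± 4.9 RPKM. Of 4 factors known at fly ribosomal protein promoters, Dref and Adf1 were called higher on both diets than on standard medium, Dref with 5.67 ± 0.33 RPKM on agar, 5.42 ± 0.22 RPKM on glucose and 3.87 ± 0.25 RPKM on standard medium. After median-ratio scaling none of the genes on these lists was called higher, and 1 growth control gene was called lower.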

How the data were processed

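RNA of whole guts was sequenced from poly(A)-selected stranded libraries, per the labels. The authors deposited log2 RPKM per gene and library; CASAVA 1.82, Bowtie2 2.1 and limma are named in the submitters' processing notes, and for genome build, annotation and use of strand nothing is given in the sources used here. Values were returned to RPKM, and log2(RPKM + 1) was fitted in limma 3.58.1 (R 4.3.3), with a mean for each of 3 diets over 9 libraries, a variance trend and Benjamini-Hochberg adjustment over the 8036 genes that reached 1 RPKM in 3 or more libraries, all 85 members among them. A gene was called at an adjusted p under 0.05. Median-ratio scaling took as each library's factor the median, over tested genes, of its ratio to the geometric mean library. Tables and plots were made with Matplotlib 3.10.9, pandas 2.3.3 and NumPy 2.4.6 under Python 3.11.15, and the fit was tested on simulated data. The repeats are biological per the series text, which does not say how many animals were pooled. Same-numbered repeats of different diets had residual correlations of 0.17 to 0.59, against -0.53 to 0.29 for others, so the numbers were taken to pair libraries and a fit with repeat number as a block was run. Members and lists were chosen with earlier results of these data known. Genes named by rule were, per comparison, the 4 members with the smallest p and the 2 largest differences each way, paralog pairs, the highest and lowest levels, the most and least typical members, 8 most similar other genes, and genes of known roles; other members called, and those of the agar 3 split, were named after their values were seen. Library totals were taken as the numbers that made genes with a single transcript come to whole reads, which 61.2% to 61.3% of 3317 such genes did within a relative tolerance of 3e-12. Symbols were matched to the current Ensembl annotation for 84 of 85 members; RpL37a, an older name of more than 1 gene, was left unplaced. Promoter and protein sequences were not analysed here.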

Additional observations from a re-analysis of the deposited data

How the results depend on the processing

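No ribosomal protein gene was called between glucose and agar under any alternative run. Of all genes, 0% to 0.772% were called higher on glucose in these runs, so the zeros say little about the members. Counts called higher than on standard medium (14 on glucose, 11 on agar) are given with the share of all genes called higher. They became 0 and 0 under median-ratio scaling (0.311% and 1.8%) and under quantile normalization (0.348% and 2.65%), 23 and 1 when only the 6 libraries compared were fitted (29.1% and 24.1%), 25 and 14 with the replicate block (42.1% and 51%), 1 and 0 with the block and median-ratio scaling (1.89% and 5.61%), and 44 and 19 with library weights (44.7% and 39.2%), whose estimation stopped short of its tolerance. They were 0 and 0 without agar 3 under median-ratio scaling (0.502% and 1.3%). Without standard 2 and 3, and without these and agar 3, a setting chosen after seeing the data, they were 0 and 0 with at most 1 gene of the table called higher; standard medium then has 1 library, so these zeros say nothing about the members. Leaving out each library in turn gave 0 to 26 on glucose, where the share of all genes ran from 0.05% without glucose 2 to 32.7% without agar 3, and 1 to 13 on agar, with 21.1% without standard 3 and 33.9% without agar 3. On glucose 0 were called without glucose 1 (0.362%), glucose 2 or standard 3 (0.861%), 1 without glucose 3 (3.39%), 2 without standard 2 (6.06%), 9 without agar 2 (15.2%) and 26 without agar 3. On agar 1 was called without standard 3, 2 without agar 2 (19.9%), 4 without standard 2 (27.4%) and 7 without glucose 1 (32.1%) or glucose 2 (31.1%). The glucose minus standard median of 0.42 became 0.10 after median-ratio scaling, with or without the block or agar 3, 0.55 under quantile normalization, and 0.0033 without standard 2 and 3, with or without agar 3; leaving out each library gave 0.32 to 0.62.

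RpL5 between glucose and agar turned from -0.0047 to 0.036 after median-ratio scaling, with or without the block, 0.015 with library weights and without glucose 2, 0.076 without agar 3, also with standard 2 and 3 left out, and 0.12 without agar 3 under scaling, with -0.070 to 0.076 when each library was left out. RpS3A turned to 0.064 without agar 3, also with standard 2 and 3 left out, and 0.11 with scaling added, with -0.20 to 0.064 when each library was left out. Between agar and standard medium RpL35A turned to 0.10 and RpL8 to 0.19 without agar 3, RpL8 to 0.028 with library weights, and, without agar 3 under scaling, RpL39 to -0.080 and RpS29 to -0.0054; leaving out each library gave -0.91 to 0.10 for RpL35A and -0.86 to 0.19 for RpL8. The cause was not tested. Paralog tests gave 0 calls under every alternative run. With 3 libraries a diet, whole-gut RNA and no read counts deposited, 3 libraries that stand apart limit every comparison with standard medium.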
